A study of Arabidopsis thaliana with 8 samples.

Results

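The auxin response gene families described here are the *Aux/IAA*, *GH3*, *SAUR*, *ARF* and *PIN* genes of Arabidopsis. Members were the probe sets that the array annotation pairs with exactly 1 gene whose symbol begins with IAA, SAUR, ARF, PIN or GH3 and continues with a number or a point. Of 22746 probe sets analysed, 11 met this rule, each for a different gene. They comprised 7 *Aux/IAA* genes (*IAA18*, *IAA20*, *IAA29*, *IAA30*, *IAA31*, *IAA33* and *IAA34*) and 4 *GH3* genes (*GH3.1*, *GH3.3*, *GH3.9* and *GH3.17*). RefSeq holds 76 Arabidopsis genes with symbols of this form, 24 IAA, 5 GH3, 16 SAUR, 23 ARF and 8 PIN. In the annotation used here, 8730 of the 22746 probe sets were not listed and 503 were paired with several genes. No *SAUR*, *ARF* or *PIN* gene had a named probe set of its own there, so these 3 families are not analysed here. Whether the array itself carries probe sets for them was not examined. FIN219/JAR1, the *GH3* family enzyme that conjugates jasmonic acid to isoleucine, is not analysed here either.

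Each of 8 conditions was measured on 1 Affymetrix ATH1 array, with RNA from whole seedlings 4 days old. The conditions combined the *hy5-1* mutant, which is in the *Ler* background, or wild-type *Ler*, with continuous FR light (1.5 μmol m-2 s-1) or darkness, on medium with 50 μM or no methyl jasmonate (MeJA). The mutant was 1 allele of *HY5*, a single line, and RNA came from all organs together, so a change in the share of an organ and a change in transcript level per cell cannot be told apart. No condition had a replicate. A ratio between 2 arrays therefore carries no error of its own, and precision is limited by how few arrays there are. The deposited values are log values, taken as log2, in which every probe set is centred separately within FR light and within darkness. Levels of different genes and levels in FR light and darkness therefore could not be compared, whereas arrays of the same light could. All values below are on this log2 scale, and a log2 ratio of 1 or -1 is the 2-fold change at which the study called a gene up- or down-regulated.

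Aux/IAA proteins are short-lived repressors. They hold ARF transcription factors inactive, and auxin causes their destruction by fastening them to TIR1/AFB receptors through a short degron. *IAA18* and *IAA29* encode proteins with this degron, whereas IAA20, IAA30, IAA31, IAA33 and IAA34 lack all or part of it. Many *Aux/IAA* genes are themselves switched on by auxin, as are several *GH3* genes. GH3 enzymes join amino acids to hormones, and those that act on auxin lower the pool of free hormone. HY5 is a bZIP transcription factor of light signaling, and auxin promotes hypocotyl elongation in seedlings.

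Other genes were read as checks of the treatment and the genotype. The jasmonate-regulated gene *JRG21* had log2 ratios with MeJA against no MeJA of 8.02 in *hy5-1* and 8.28 in *Ler* under FR light, and of 8.98 in *hy5-1* and 8.49 in *Ler* in darkness. *HYH*, the homolog of *HY5*, was lower in *hy5-1* than in *Ler* in all 4 pairs of arrays, with log2 ratios between -0.92 and -5.98. Its mean log2 difference between genotypes was -3.37 (standard error 1.08, limma, adjusted p = 0.716), which did not pass. *HY5* itself had no named probe set in the annotation used. Markers of other tissues were sparsely covered by this annotation. It named 3 of 16 seed genes, 2 of 10 root genes and 1 of 10 genes of photosynthetic cotyledons. The root hair expansin genes *EXPA7* and *EXPA18* had log2 ratios with MeJA in darkness of -3.27 and -0.97 in *hy5-1*, and of -4.39 and -3.73 in *Ler*. Under FR light the ratios of *EXPA7* and *EXPA18* were 1.86 and 0.83 in *hy5-1*, and 1.46 and 0.96 in *Ler*. *RCA*, which encodes Rubisco activase, stayed between -0.08 and 0.62 in the 4 MeJA ratios. The seed genes *M10* and *OLEO3* had mean log2 differences with MeJA of 6.85 and -1.35 over the 4 pairs. *M17*, the remaining seed gene, had ratios with MeJA of 3.02 in *hy5-1* and 2.18 in *Ler* under FR light, and of 4.93 in *hy5-1* and -6.26 in *Ler* in darkness. The part of tissue composition in the results below was not tested.

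Across the 11 genes, *IAA34* and *IAA31* varied most between the arrays of a light. Between the highest and the lowest array of a light, *IAA34* spanned 2.35 under FR light and 3.09 in darkness, and *IAA31* spanned 2.74 and 1.56. The smallest span was 0.55 for *IAA18* under FR light and 0.45 for *GH3.1* in darkness. The median span of the 11 genes was 1.22 under FR light and 1.19 in darkness, beside 0.87 and 0.90 over all probe sets.

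**Figure D1:**
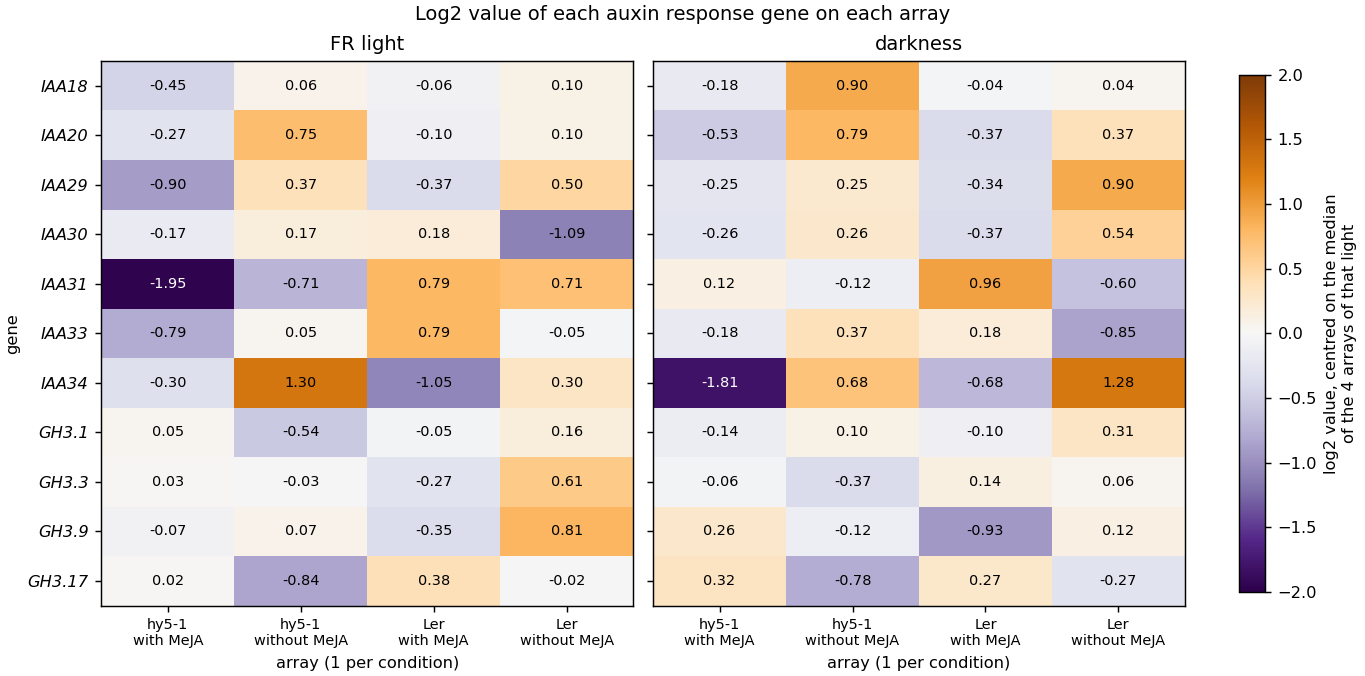
Log2 value of each of the 11 genes (rows) on each of the 8 arrays (columns, FR light on the left and darkness on the right), centred on the median of the 4 arrays of that light; purple is low and orange is high. *IAA34* is lowest, at -1.81, in *hy5-1* with MeJA in darkness, and *IAA31* is lowest, at -1.95, in *hy5-1* with MeJA under FR light.

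To learn how MeJA affected these genes, treated and untreated seedlings of the same genotype and light were compared. *IAA34* was down-regulated by MeJA at 2-fold in both genotypes and both lights, and it was the only one of the 11 genes with 4 such calls. The share of all probe sets with 4 such calls was not counted. *IAA29*, *IAA20* and *IAA18* were also lower with MeJA in all 4 pairs, by smaller amounts, and *GH3.17* was higher in all 4. For these 5 genes the treated and untreated arrays of each light did not overlap. Of all probe sets, 16.1% had both MeJA arrays below both untreated arrays in each light, as did 4 of the 11 genes, and 10.8% had both above, as did 1. Lower values with MeJA in all 4 pairs, of any size, were found for 21.0% of all probe sets, and higher values for 14.6%.

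*IAA34* encodes an Aux/IAA protein without the usual degron. Under FR light it had log2 values of -0.30 in *hy5-1* with MeJA and -1.05 in *Ler* with MeJA, against 1.30 in untreated *hy5-1* and 0.30 in untreated *Ler*. In darkness *IAA34* had values of -1.81 in *hy5-1* with MeJA and -0.68 in *Ler* with MeJA, against 0.68 in untreated *hy5-1* and 1.28 in untreated *Ler*. Both treated arrays thus lay below both untreated arrays in each light. The log2 ratios with MeJA were -1.60 in *hy5-1* and -1.36 in *Ler* under FR light, and -2.48 in *hy5-1* and -1.96 in *Ler* in darkness. Fitted in limma over all probe sets, with genotype and light together as blocks, *IAA34* had a mean log2 difference of -1.85 (standard error 0.23, adjusted p = 0.0295), lower with MeJA in 4 of 4 pairs. In this model the differences between the 4 pairs set the error, with 3 residual degrees of freedom. It called 1.68% of all probe sets lower and 2.7% higher with MeJA. *IAA34* was the only one of the 11 genes called, and 4 of the 11 had an unadjusted p of at most 0.05, beside 23.8% of all probe sets. With any single pair left out, *IAA34* had a mean difference between -1.64 and -2.02 and did not pass (adjusted p between 0.0907 and 0.128). In those fits of 3 pairs, between 0 and 34 of all probe sets passed.

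*IAA29*, which has the degron and is known as a target of the PIF factors in shade, was next in size among the genes that were lower with MeJA. Under FR light *IAA29* had log2 values of -0.90 in *hy5-1* with MeJA and -0.37 in *Ler* with MeJA, against 0.37 in untreated *hy5-1* and 0.50 in untreated *Ler*. In darkness its values were -0.25 in *hy5-1* with MeJA and -0.34 in *Ler* with MeJA, against 0.25 in untreated *hy5-1* and 0.90 in untreated *Ler*. The 2 largest decreases of *IAA29* were thus in *hy5-1* under FR light, at -1.27, and in *Ler* in darkness, at -1.24, and the other 2 ratios stayed under 2-fold. The limma model gave *IAA29* a mean log2 difference of -0.97 (standard error 0.19, adjusted p = 0.071), which did not pass. In limma it passed only when the variance was fitted as a trend on the mean of the centred values (adjusted p = 0.0479). Such a mean carries no expression level, so no conclusion is drawn from that pass. Over the other limma alternatives the adjusted p of *IAA29* ran between 0.0674 and 0.217.

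*IAA20*, which lacks the degron, was 2-fold lower with MeJA in *hy5-1* only. Its values under FR light were -0.27 in *hy5-1* with MeJA and -0.10 in *Ler* with MeJA, against 0.75 in untreated *hy5-1* and 0.10 in untreated *Ler*. In darkness *IAA20* was at -0.53 in *hy5-1* with MeJA and -0.37 in *Ler* with MeJA, against 0.79 in untreated *hy5-1* and 0.37 in untreated *Ler*. Untreated *hy5-1* was therefore the highest array in both lights. The log2 ratios were -1.01 in *hy5-1* and -0.20 in *Ler* under FR light, and -1.32 in *hy5-1* and -0.74 in *Ler* in darkness. The ratio in *hy5-1* under FR light fell short of 2-fold at -0.95 after quantile normalization and at -0.94 after median scaling. The mean difference of *IAA20* was -0.82 (standard error 0.23, limma, adjusted p = 0.13), and the difference of its MeJA ratios between *hy5-1* and *Ler* was -0.70 (standard error 0.27, limma, adjusted p = 0.835).

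*IAA18*, which has the degron, had MeJA ratios of -0.51 in *hy5-1* and -0.17 in *Ler* under FR light, and of -1.08 in *hy5-1* and -0.08 in *Ler* in darkness. Only the ratio in dark-grown *hy5-1* reached 2-fold, and it was -0.88 after quantile normalization. It rested on untreated *hy5-1*, at 0.90, as the other 3 dark arrays lay between -0.18 and 0.04. The mean difference of *IAA18* was -0.46 (standard error 0.22, limma, adjusted p = 0.29).

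*GH3.17*, which encodes an enzyme that joins auxin to glutamate, ran the opposite way. Under FR light its log2 values were 0.02 in *hy5-1* with MeJA and 0.38 in *Ler* with MeJA, against -0.84 in untreated *hy5-1* and -0.02 in untreated *Ler*. In darkness *GH3.17* had values of 0.32 in *hy5-1* with MeJA and 0.27 in *Ler* with MeJA, against -0.78 in untreated *hy5-1* and -0.27 in untreated *Ler*. The lowest array of each light was thus untreated *hy5-1*. The MeJA ratios were 0.86 in *hy5-1* and 0.40 in *Ler* under FR light, and 1.09 in *hy5-1* and 0.54 in *Ler* in darkness, with 1 of the 4 at 2-fold. The mean difference of *GH3.17* was 0.72 (standard error 0.18, limma, adjusted p = 0.102).

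**Figure D2:**
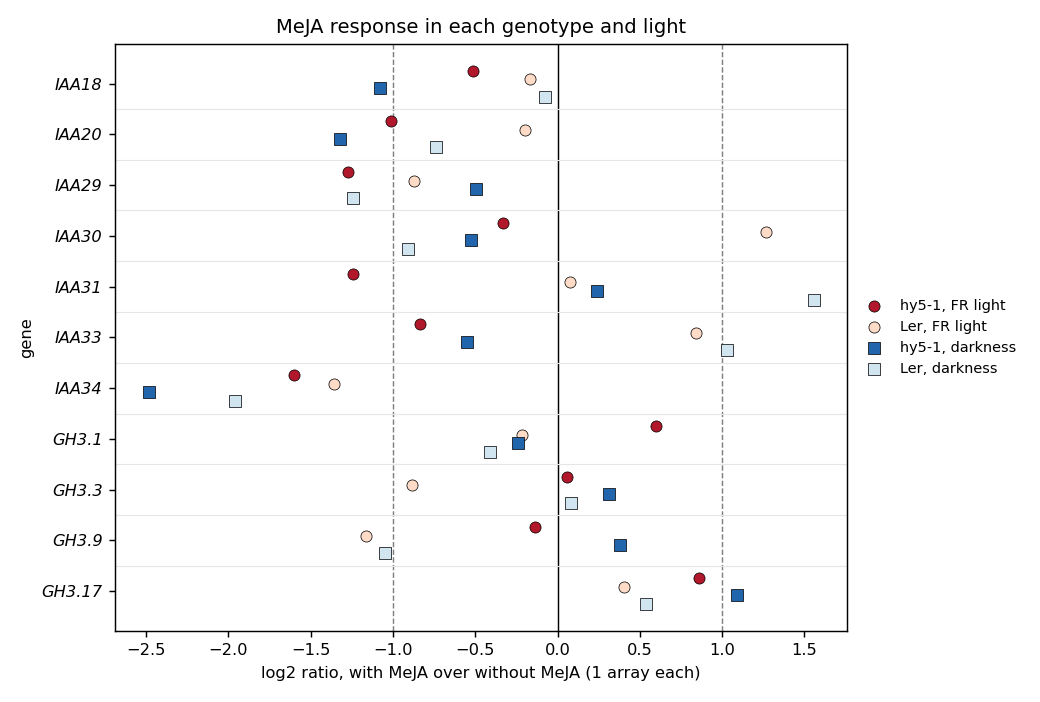
Log2 ratio with MeJA over without MeJA (x axis) of each gene (y axis) in the 4 combinations of genotype and light, 1 array for each side of a ratio; dashed lines mark 2-fold. All 4 points of *IAA34* lie left of -1, and all 4 points of *GH3.17* lie right of 0.

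The remaining *Aux/IAA* genes reached 2-fold with MeJA in some pairs of arrays, with ratios of both signs. *IAA31*, which lacks part of the degron, had log2 values under FR light of -1.95 in *hy5-1* with MeJA and 0.79 in *Ler* with MeJA, against -0.71 in untreated *hy5-1* and 0.71 in untreated *Ler*. In darkness *IAA31* was at 0.12 in *hy5-1* with MeJA and 0.96 in *Ler* with MeJA, against -0.12 in untreated *hy5-1* and -0.60 in untreated *Ler*. With a ratio of -1.24 it was thus down-regulated in FR-grown *hy5-1*, and with a ratio of 1.56 it was up-regulated in dark-grown *Ler*. The other ratios of *IAA31* were 0.24 in *hy5-1* in darkness and 0.07 in *Ler* under FR light, and quantile normalization turned the ratio of 0.07 to -0.09. Over the 4 pairs these responses averaged 0.16 (standard error 0.48, limma, adjusted p = 0.873), and they differed between FR light and darkness by -1.48 (standard error 0.26, limma, adjusted p = 0.589).

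*IAA33*, an Aux/IAA gene whose protein lacks the degron, had MeJA ratios of opposite sign in the genotypes. Its log2 values under FR light were -0.79 in *hy5-1* with MeJA and 0.79 in *Ler* with MeJA, against 0.05 in untreated *hy5-1* and -0.05 in untreated *Ler*. In darkness *IAA33* was at -0.18 in *hy5-1* with MeJA and 0.18 in *Ler* with MeJA, against 0.37 in untreated *hy5-1* and -0.85 in untreated *Ler*. The ratios were -0.84 in *hy5-1* and 0.84 in *Ler* under FR light, and -0.55 in *hy5-1* and 1.03 in *Ler* in darkness. The difference of the ratios between *hy5-1* and *Ler* was -1.63 (standard error 0.27, limma, adjusted p = 0.706), in the same direction in both lights. That fit has 1 residual degree of freedom, and it called 0 of all probe sets. At an unadjusted p of at most 0.05 there were 1442 probe sets (6.34%), with *IAA31*, *IAA33* and *GH3.9* among them. The corresponding fit of MeJA ratios between FR light and darkness called 0 probe sets as well, with 1789 (7.87%) at that unadjusted p, and *IAA31* was the only one of the 11 genes there.

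*IAA30* was up-regulated by MeJA in *Ler* under FR light, with a ratio of 1.27, and had ratios of -0.33 in *hy5-1* under FR light, -0.53 in *hy5-1* in darkness and -0.91 in *Ler* in darkness. The positive ratio of *IAA30* rested on untreated *Ler* under FR light, at -1.09, since the other 3 FR arrays lay between -0.17 and 0.18.

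Of the other *GH3* genes, *GH3.9*, which has been linked to primary root growth, reached 2-fold lower values with MeJA in *Ler* only. Its log2 values under FR light were -0.07 in *hy5-1* with MeJA and -0.35 in *Ler* with MeJA, against 0.07 in untreated *hy5-1* and 0.81 in untreated *Ler*. In darkness *GH3.9* was at 0.26 in *hy5-1* with MeJA and -0.93 in *Ler* with MeJA, against -0.12 in untreated *hy5-1* and 0.12 in untreated *Ler*. The ratios were -0.14 in *hy5-1* and -1.16 in *Ler* under FR light, and 0.38 in *hy5-1* and -1.05 in *Ler* in darkness. The dark ratio in *Ler* was -0.99 after quantile normalization and also fell short of 2-fold after median scaling. The MeJA ratios of *GH3.9* differed between *hy5-1* and *Ler* by 1.22 (standard error 0.29, limma, adjusted p = 0.767). The auxin-inducible genes *GH3.1*, with MeJA ratios between -0.41 and 0.60, and *GH3.3*, with ratios between -0.88 and 0.31, stayed under 2-fold in all 4 pairs.

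By family, the *Aux/IAA* genes below 0 with MeJA numbered 7 of 7 in *hy5-1* and 4 of 7 in *Ler* under FR light, and 6 of 7 in *hy5-1* and 5 of 7 in *Ler* in darkness. Of all 22746 probe sets, between 12262 and 12609 were below 0 in these 4 ratios, and whether the family differed between genotypes was not tested. In *hy5-1* under FR light, 4 of the 7 were down-regulated and none was up-regulated, with a family median of -1.01 beside -0.09 over all probe sets. There 24.6% of all probe sets changed at 2-fold, 13.4% lower and 11.2% higher. In *Ler* under FR light, 1 *Aux/IAA* gene was up-regulated and 1 was down-regulated, with a median of -0.17 and a background of 24.0%, 12.8% higher and 11.2% lower. In *hy5-1* in darkness, 3 were down-regulated and none was up-regulated, with a median of -0.55 and a background of 28.3%, 16.1% lower and 12.2% higher. In dark-grown *Ler*, 2 were up-regulated and 2 were down-regulated, with a median of -0.74 and a background of 24.3%, 11.2% higher and 13.1% lower.

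The 4 *GH3* genes had median MeJA ratios of 0.33 in *hy5-1* and -0.55 in *Ler* under FR light, and of 0.35 in *hy5-1* and -0.16 in *Ler* in darkness. *GH3.17* in dark-grown *hy5-1* and *GH3.9* in *Ler* under both lights gave the 3 calls at 2-fold. Over both families, 16 of 44 MeJA ratios reached 2-fold (36.4%), beside 25.3% over all probe sets, and 12 of these 16 belonged to genes other than *IAA34*.

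**Figure D3:**
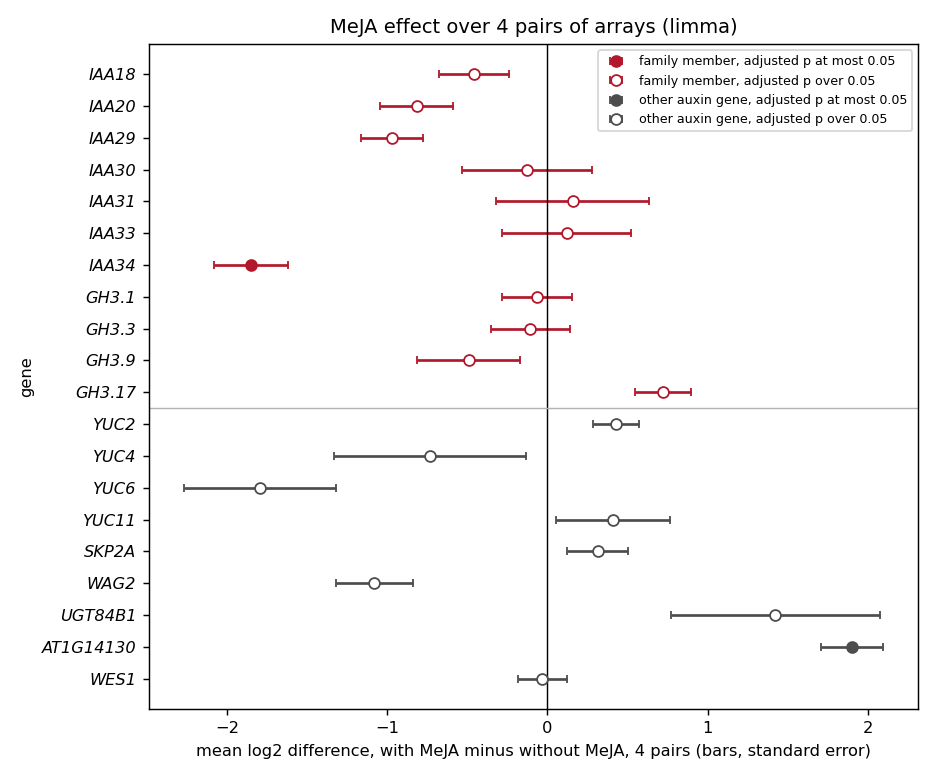
Mean log2 difference with MeJA minus without MeJA over the 4 pairs of arrays (x axis, limma, bars are the standard error) for the 11 family members (upper block) and 9 other auxin genes (lower block); filled points have an adjusted p of at most 0.05. Only *IAA34*, at -1.85, and AT1G14130, at 1.90, are filled.

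Auxin genes outside these families were read from 5 lists of biosynthesis, perception, transport, conjugation and family genes with another symbol. Of 81 listed genes, 9 had a named probe set in the annotation used. In the MeJA ratios of *hy5-1* under FR light, 3 of the 9 were up-regulated and 1 was down-regulated, beside 11.2% and 13.4% of all probe sets. In *Ler* under FR light these numbers were 1 and 2, beside 12.8% and 11.2%. In darkness, 2 were up-regulated and 1 was down-regulated in *hy5-1*, beside 12.2% and 16.1%. In dark-grown *Ler* the numbers were 1 and 3, beside 11.2% and 13.1%. AT1G14130, a listed gene without a symbol in the annotation used, was higher with MeJA in 4 of 4 pairs, with a mean log2 difference of 1.90 (standard error 0.19, limma, adjusted p = 0.0204). *WAG2*, which encodes a kinase that acts on PIN auxin exporters, had a mean difference of -1.08 (standard error 0.24, limma, adjusted p = 0.0882). *YUC6*, which encodes a flavin monooxygenase of auxin biosynthesis, had MeJA ratios of -0.44 in *hy5-1* and -1.68 in *Ler* under FR light, and of -1.84 in *hy5-1* and -3.22 in *Ler* in darkness (limma, mean -1.80, adjusted p = 0.116). *UGT84B1*, which encodes a glucosyltransferase of auxin, was up-regulated in *hy5-1*, at 1.95 under FR light and 3.41 in darkness, and had ratios in *Ler* of 0.48 under FR light and -0.14 in darkness (limma, mean 1.42, adjusted p = 0.272). *WES1*, the *GH3* gene also known as *GH3.5*, stayed between -0.35 and 0.14.

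To see which of these genes differed between genotypes, *hy5-1* was compared with *Ler* in the same light and treatment. *IAA31* was 2-fold lower in *hy5-1* under FR light with and without MeJA, and no other gene of the 11 reached 2-fold in the same direction in more than 1 comparison. The 4 *GH3* genes were all lower in untreated *hy5-1* than in untreated *Ler*, in both lights, by less than 2-fold. In total, 7 of 44 ratios of *hy5-1* to *Ler* reached 2-fold (15.9%), beside 17.1% over all probe sets. None of the 11 genes kept 1 sign in all 4 comparisons, as 7.46% of all probe sets did with lower and 9.14% with higher values in *hy5-1*.

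*IAA31* had log2 ratios of *hy5-1* to *Ler* of -2.74 under FR light with MeJA and -1.43 under FR light without MeJA. Its ratio of -2.74 was larger in size than that of 96.0% of all probe sets in that comparison. This share was 89.1% without MeJA under FR light, and 79.8% with MeJA and 62.2% without MeJA in darkness. In darkness the ratios were -0.84 with MeJA and 0.48 without MeJA. Under FR light both *hy5-1* arrays of *IAA31* therefore lay below both *Ler* arrays, and in darkness they lay between them. The share of all probe sets with such an order was not counted. The mean difference over the 4 pairs was -1.13 (standard error 0.56, limma, adjusted p = 0.742), and the genotype ratio differed between FR light and darkness by -1.91 (standard error 0.26, limma, adjusted p = 0.719). That fit called 0 probe sets, with 1265 (5.56%) and 3 of the 11 genes (*IAA31*, *IAA33* and *IAA34*) at an unadjusted p of at most 0.05. In the RefSeq annotation the gene that follows *IAA31* is *HYH*. The ratios of *HYH* were -1.30 under FR light with MeJA, -0.92 under FR light without MeJA, -5.26 in darkness with MeJA and -5.98 in darkness without MeJA. *HYH* thus had its largest decrease in darkness and *IAA31* under FR light, and a link between these genes was not tested. *BSH*, the gene on the other side, stayed between -0.31 and 0.50.

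*IAA34* was higher in *hy5-1* under FR light and lower in darkness. Its log2 ratios of *hy5-1* to *Ler* were 0.75 with MeJA and 1.00 without MeJA under FR light, and -1.13 with MeJA and -0.60 without MeJA in darkness. The ratio without MeJA under FR light lay just under 2-fold and reached 1.08 after quantile normalization. *IAA33* was 2-fold lower in *hy5-1* under FR light with MeJA, at -1.59, and 2-fold higher in darkness without MeJA, at 1.22. *IAA30* was higher in untreated *hy5-1* under FR light, at 1.26, a ratio that again rested on the low untreated *Ler* array.

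*IAA29* had ratios of -0.52 with MeJA and -0.12 without MeJA under FR light, and of 0.10 with MeJA and -0.66 without MeJA in darkness. *IAA18* and *IAA20* also stayed under 2-fold, between -0.38 and 0.86 for *IAA18* and between -0.17 and 0.65 for *IAA20*.

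The *GH3* genes in untreated seedlings had ratios of *hy5-1* to *Ler* under FR light of -0.70 for *GH3.1*, -0.64 for *GH3.3*, -0.74 for *GH3.9* and -0.82 for *GH3.17*. For *GH3.3* and *GH3.9* they rested on high untreated *Ler* arrays, at 0.61 and 0.81, as the other FR arrays reached at most 0.03 and 0.07. For *GH3.1* and *GH3.17* they rested on low untreated *hy5-1* arrays, at -0.54 and -0.84, as the other FR arrays lay no lower than -0.05 and -0.02. In darkness without MeJA the ratios were -0.21 for *GH3.1*, -0.43 for *GH3.3*, -0.24 for *GH3.9* and -0.51 for *GH3.17*. All 8 of these ratios were below 0 under each scaling tried. They share their untreated arrays with the MeJA ratios of the same genes, so they are not results independent of those ratios. Of all probe sets, 24.7% were lower in untreated *hy5-1* in both lights, and 1 of the 7 *Aux/IAA* genes was. With MeJA, none of the 4 *GH3* genes was lower in *hy5-1* in both lights. There *GH3.9* was 2-fold higher in *hy5-1* in darkness, at 1.19, and the other *GH3* ratios lay between -0.36 and 0.30. *WES1* had ratios without MeJA of 0.04 under FR light and -0.10 in darkness.

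**Figure D4:**
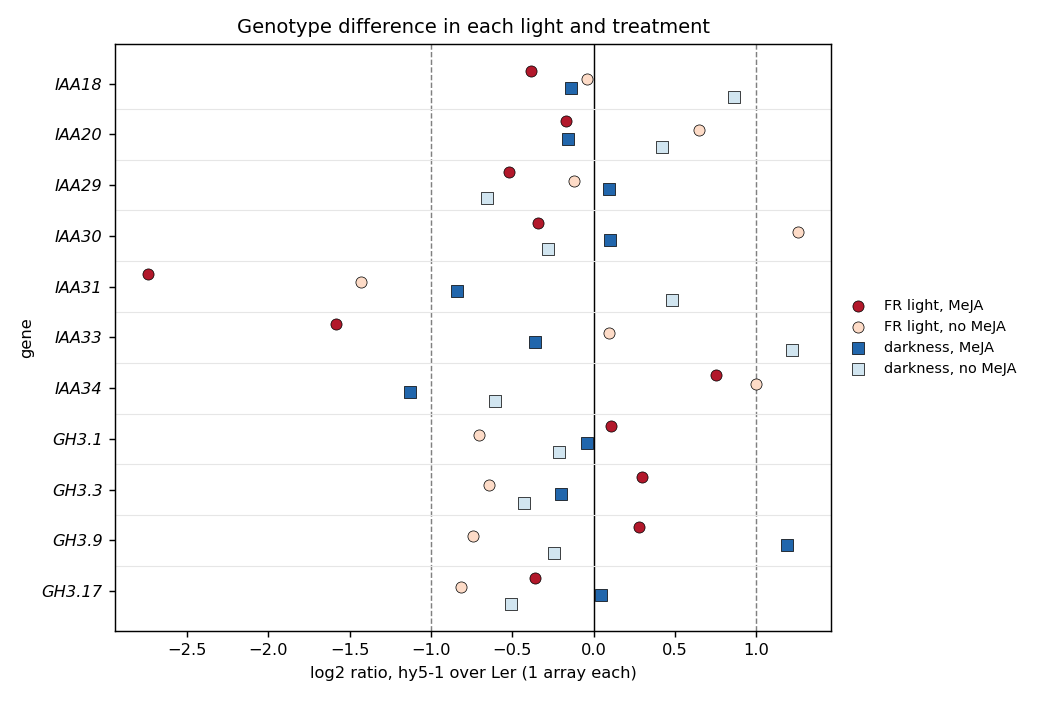
Log2 ratio of *hy5-1* over *Ler* (x axis) of each gene (y axis) in the 4 combinations of light and treatment, 1 array for each side of a ratio; dashed lines mark 2-fold. *IAA31* lies farthest left, at -2.74 under FR light with MeJA, and the pale points (no MeJA) of the 4 *GH3* genes all lie left of 0.

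By comparison, 2 of the 11 genes differed at 2-fold between *hy5-1* and *Ler* under FR light with MeJA, both lower, beside a background of 18.0% of all probe sets, 8.92% higher and 9.09% lower. Without MeJA under FR light, *IAA30* was higher and *IAA31* was lower, beside 16.0% of all probe sets, 9.19% higher and 6.85% lower. In darkness with MeJA, *GH3.9* was higher and *IAA34* was lower, beside 17.1% of all probe sets, 9.0% higher and 8.06% lower. In darkness without MeJA, *IAA33* was higher and none was lower, beside 17.3% of all probe sets, 9.64% higher and 7.68% lower. The median ratio of the 11 genes ran between -0.12 and -0.34 over the 4 comparisons. With light and MeJA as blocks, the limma model called 0 of the 11 genes and 0 of all probe sets for genotype, with 0 of the 11 and 1553 of all probe sets (6.83%) at an unadjusted p of at most 0.05. The largest mean differences among the *GH3* genes were -0.41 for *GH3.17* (standard error 0.18, limma, adjusted p = 0.73) and -0.24 for *GH3.3* (standard error 0.20, limma, adjusted p = 0.817).

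Among the 9 other auxin genes, *YUC11*, a biosynthesis gene, differed most between genotypes, with ratios of *hy5-1* to *Ler* of -3.16 with MeJA and -3.78 without MeJA under FR light, and of 2.91 with MeJA and 2.08 without MeJA in darkness. *YUC6* was higher in *hy5-1* under FR light, at 2.46 with MeJA and 1.23 without MeJA, and in darkness with MeJA, at 1.34, and had a ratio of -0.04 in darkness without MeJA. *UGT84B1* had ratios of *hy5-1* to *Ler* of 1.65 with MeJA and 0.18 without MeJA under FR light, and of 0.67 with MeJA and -2.88 without MeJA in darkness. The ratio of -2.88 and its MeJA ratio of 3.41 in dark-grown *hy5-1* share the untreated *hy5-1* array, at -2.81, the lowest of the 4 dark arrays. In the limma model *YUC6* had a mean difference of 1.25 (standard error 0.43, adjusted p = 0.723).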

How the data were processed

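The authors deposited log2 values of 8 arrays, normalized with GeneSpring GX from probe set summaries by MAS5 (version not given in the sources used here). No source used here gives the log base, and base 2 was assumed. Each probe set has a median of 0 (to 5e-07) over the 4 FR arrays and over the 4 dark arrays. Of 22810 probe sets, 64 controls were left out. Array annotation was matched to RefSeq (TAIR10.1) by gene identifier, for names and gene order only. Log2 ratios were taken within a light. MeJA and genotype effects over 4 pairs (3 residual degrees of freedom) and their interactions (1) were fitted to all 22746 probe sets with limma 3.58.1 in R 4.3.3, without a variance trend, with Benjamini-Hochberg adjustment at 0.05. The error behind these p-values came from the spread between pairs, not between replicates. The pairs differed in genotype or light for the MeJA effect, and in light or MeJA for the genotype effect. Any real difference between pairs that a fit does not model is part of this error. The main fits were run on simulated data, where their median estimates were checked against the changes put in. The alternative settings were not run on simulated data.

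Genes were described with values where they reached 2-fold at least 2 times in the same direction, were the highest or lowest of the 11 in a ratio, or passed limma, together with *IAA29*, and the rest were added to account for every gene. Other auxin genes were named where they reached 2-fold in at least 2 MeJA or 2 genotype ratios, and *WES1* was added after its values were seen. The families and gene lists were chosen with earlier results of these data known. Alternatives were quantile normalization, median scaling, thresholds of 1.5-fold and 3-fold, removal of 414 probe sets with tied lowest values in a light (0 of the 11), trend and robust variance, and each pair left out. Natural logarithms and the count without *IAA34* were added after seeing the data.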

Additional observations from a re-analysis of the deposited data

Results flagged for a closer look

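In 5 cases, both pairs of arrays of one group moved one way and both pairs of the other group the opposite way. None of these differences passed in the limma fit of the difference, which has 1 residual degree of freedom. *IAA33* had mean log2 ratios with MeJA of -0.69 in *hy5-1* and 0.94 in *Ler*, a difference of -1.63 (limma, adjusted p = 0.706), and 7.28% of all probe sets showed opposite signs of this kind. The mean ratio of *hy5-1* to *Ler* of *IAA34* was 0.87 under FR light and -0.87 in darkness, a difference of 1.74 (limma, adjusted p = 0.761), beside 9.65% of all probe sets with such signs. For 3 of the 11 genes, and for 14.1% of all probe sets, the ratio of *hy5-1* to *Ler* had 1 sign in both lights with MeJA and the opposite sign in both lights without MeJA. Its mean was -0.16 with MeJA and 0.54 without MeJA for *IAA20*, a difference of -0.70 (limma, adjusted p = 0.835). For *GH3.9* it was 0.73 with MeJA and -0.49 without MeJA, a difference of 1.22 (limma, adjusted p = 0.767). For *IAA33* it was -0.97 with MeJA and 0.66 without MeJA, which is the same difference of -1.63 as above.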

How the results depend on the processing

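The count of MeJA ratios at 2-fold, 16 of 44, was 13 after quantile normalization, 14 after median scaling and 3 at a threshold of 3-fold. It was 24 at 1.5-fold and 23 with the values taken as natural logarithms. The count of genotype ratios at 2-fold, 7 of 44, was 18 at 1.5-fold, 2 at 3-fold and 14 with the values taken as natural logarithms. For MeJA, limma called 1 of the 11 genes, and 0 when any 1 pair was removed, a fit with fewer residual degrees of freedom. With a variance trend it called 2 (*IAA34* and *IAA29*), but a trend on the mean has no meaning for centred values. For genotype, limma called 0 of the 11 under every alternative run. For each interaction it called 0 of the 11 in the main fit and after quantile normalization, the only alternative run there. Of the single ratios of the 11 genes under both scalings, 170 stayed on their side of 2-fold, 5 lost and 1 gained a 2-fold call, and none that was called changed sign. The family median of *GH3* for *hy5-1* against *Ler* in darkness with MeJA, 0.0042, crossed 0 under both scalings, to -0.0066 and -0.0013. Each condition had 1 array, so there were no replicates to pair. The pairs in the limma fits are arrays matched by genotype and light or by light and MeJA. Centring removed the level of each transcript, so that dim and bright probe sets could not be told apart.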
